A study of Danio rerio with 36 samples.

Results

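The genes described are 3 genes of the zebrafish integrated stress response: atf3 (ENSDARG00000007823), ppp1r15a (ENSDARG00000069135) and CEBPB (ENSDARG00000042725). They were chosen by their identifiers with their values at the highest concentration of both chemicals already known. All 3 were present in both gene tables, among 25856 genes in the bisphenol A (BPA) table and 26639 genes in the tetrabromobisphenol A (TBBPA) table, and all 3 passed the filter on low values in both. BPA is a monomer of plastics and epoxy resins, and TBBPA is its brominated derivative, used as a flame retardant. Zebrafish larvae of AB/Tub background were exposed in well plates between 72 and 120 hours post fertilization (hpf), and the RNA of 20 whole larvae was pooled for each library. BPA was given at 48.3 µM, the EC20 that the study took from an earlier toxicity assay, and at 4 lower concentrations set by 10-fold dilution (0.00483, 0.0483, 0.483 and 4.83 µM). TBBPA was given at its EC20 of 2.92 µM and at 0.000292, 0.00292, 0.0292 and 0.292 µM. Each chemical had its own carrier control (CC), which according to the methods held 0.5% DMSO. There were 3 libraries in each of the 6 groups of each chemical, 36 in all, and the study collected only larvae that looked normal. The concentrations of the 2 chemicals differed and their tables were normalized separately, so their values are given side by side without a test between them. In pools of whole larvae, a change in the number of cells of a type and a change in RNA per cell cannot be told apart.

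The integrated stress response is a shared answer of cells to a shortage of amino acids, misfolded protein in the endoplasmic reticulum (ER), haem deficiency or viral RNA. Each of these activates a kinase that phosphorylates the translation factor eIF2, which slows protein synthesis in general while favouring translation of the transcription factor ATF4. ATF4 and its partners raise transcripts for amino acid supply and for other transcription factors, among them ATF3, a stress-induced member of the basic leucine zipper family. ppp1r15a encodes the stress-inducible subunit that directs protein phosphatase 1 to eIF2 and so closes the feedback loop. CEBPB encodes C/EBP beta, a leucine zipper factor known in mammals for roles in the acute-phase response of liver and in myeloid cells, and one that can dimerize with ATF4 and with CHOP (the product of DDIT3).

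The libraries held 6056692 to 16520859 reads assigned to genes in the BPA series and 7865327 to 11478099 in the TBBPA series. Values are normalized counts, that is, reads divided by a size factor for the library. The 3 genes were covered by at least 31 reads in every library. The library of replicate 3 at 4.83 µM BPA stood apart from the other 17 on the first principal component, where its score was 125 and that component held 38.6% of the variance. Its values for the 3 genes were 51.5 for atf3, 841 for ppp1r15a and 120 for CEBPB, the first between its 2 replicates and the others below both. Replicate 2 of the BPA CC also differed from the other CC libraries on that component, with a score of 16.1 against -23.7 and -22.8. This CC library enters every BPA contrast. Its part in the results without replicate 2 was not tested.

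atf3 had the largest difference from CC of the 3 genes after BPA. Its normalized counts were 696, 821 and 809 in the BPA EC20 libraries, against 37.6, 37.8 and 46.8 in the BPA CC libraries. The groups did not overlap, and the lowest EC20 library was 11.6 times the highest of the 15 other BPA libraries. atf3 averaged 775 ± 68.8 at the BPA EC20 and 40.7 ± 5.24 in CC (SD, n = 3 each), and the fitted log2 fold change was 4.22 with a standard error (SE) of 0.16. Within the pairs of libraries of the same replicate number the EC20 value was 18.5, 21.7 and 17.3 times the CC value. The difference after TBBPA was smaller, and the libraries of that group were spread more widely. At the TBBPA EC20 atf3 had 197, 115 and 166 normalized counts, against 95.1, 90.1 and 80.1 in the TBBPA CC. Replicate 2 was the lowest of the EC20 libraries, yet it too lay above all 15 other TBBPA libraries, of which the highest had 106. atf3 averaged 159 ± 41.2 at the TBBPA EC20 and 88.4 ± 7.65 in CC (SD, n = 3 each), with a fitted log2 fold change of 0.81 (SE 0.14).

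ppp1r15a was well above CC at the BPA EC20 and overlapped CC at the TBBPA EC20. It had 3218, 4063 and 2892 normalized counts in the BPA EC20 libraries, against 858, 881 and 747 in the BPA CC libraries. The lowest EC20 library was 2.92 times the highest of the other 15. The means were 3391 ± 604 at the BPA EC20 and 828 ± 71.8 in CC (SD, n = 3 each), and the log2 fold change was 2.02 (SE 0.11). After TBBPA the gene had 738, 727 and 655 normalized counts at the EC20, against 869, 722 and 801 in CC. The TBBPA EC20 had the lowest mean of all 6 TBBPA groups. Means were 707 ± 45.0 at the TBBPA EC20 and 797 ± 73.6 in CC (SD, n = 3 each), and the log2 fold change was -0.17 (SE 0.08). Replicate 2 showed almost no difference within its pair, at 1.01 times its CC value.

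CEBPB had 1173, 1105 and 953 normalized counts in the BPA EC20 libraries, against 88.7, 116 and 111 in the BPA CC libraries. The lowest EC20 library was 5.02 times the highest of the other 15 libraries. Its means were 1077 ± 113 at the BPA EC20 and 105 ± 14.4 in CC (SD, n = 3 each), with a log2 fold change of 3.35 (SE 0.21). In the TBBPA series it had 407, 268 and 293 normalized counts at the EC20, against 269, 291 and 194 in CC. Here the groups overlapped: replicates 1 and 3 were 1.51 times their CC libraries, whereas replicate 2 was at 0.92 times its own. The TBBPA means were 323 ± 74.1 at the EC20 and 251 ± 50.6 in CC (SD, n = 3 each), and the log2 fold change was 0.36 (SE 0.13).

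**Figure D1:**
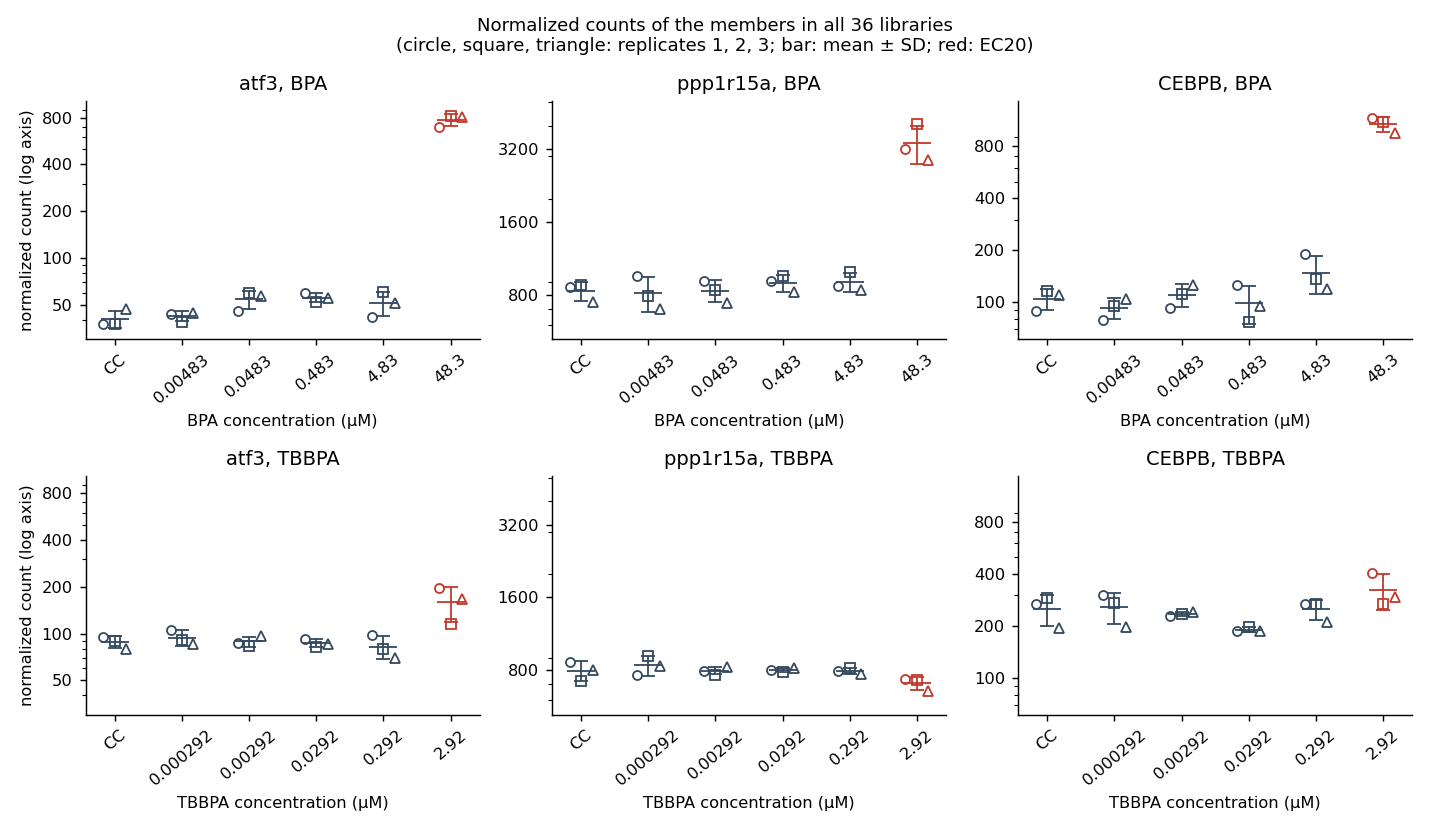
Normalized counts (log axis) of atf3, ppp1r15a and CEBPB in each of the 36 libraries by concentration in µM, with CC at the left and the EC20 in red; symbols are replicates and bars are the mean ± SD of 3 libraries. The BPA EC20 libraries sit far above every other BPA library for all 3 genes, whereas at the TBBPA EC20 all 3 atf3 libraries, 1 CEBPB library (replicate 1) and no ppp1r15a library sit above the other 15 libraries.

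These EC20 values were known when the genes were chosen, so they are a description and carry no test. For scale, a differentially expressed gene (DEG) was one with a Benjamini-Hochberg adjusted p under 0.05 in the limma fit and a change of at least 1.5-fold. By that rule 7.07% of the 17248 genes tested rose at the BPA EC20 and 6.93% fell, and 0.658% of the 18400 genes tested rose at the TBBPA EC20 and 0.201% fell. The number of DEGs at the TBBPA EC20 was 158, but 19 without replicate 3, 41 without replicate 1 and 69 without the replicate block, and at the BPA EC20 it was 2414, but 1169 without replicate 2 and 1217 without replicate 1. In 18% of the genes tested all 3 BPA EC20 libraries lay above all 3 CC libraries, and for TBBPA the share was 10.5%. Ordered by log2 fold change at the BPA EC20, atf3 was number 17, CEBPB number 33 and ppp1r15a number 142 of the 17248 genes. At the TBBPA EC20 atf3 was number 203 of the 18400 genes, CEBPB number 1611 and ppp1r15a number 14281.

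By the plan the 4 lower concentrations were not used to choose the genes. The genes were chosen with earlier results of these data known, so these tests may not be free of that choice. The 4 concentrations also share the CC libraries with the EC20 contrast. They ask whether the 3 transcripts moved below the EC20. None of the 3 was a DEG at any of the lower concentrations of either chemical. The share of all genes called was 0% at each of the lower BPA concentrations, 0.0272% at 0.000292 µM TBBPA and 0% at the other lower TBBPA concentrations. For BPA, 208 (1.21%) to 510 (2.96%) of the 17248 genes had an unadjusted p under 0.05 in limma at a given lower concentration. For TBBPA the corresponding number was 695 (3.78%) to 1277 (6.94%) of the 18400 genes, and it was 934 (5.08%) at 0.0292 µM. The BPA shares lie under the share that a threshold of 0.05 gives where nothing changed. The lack of calls at the lower BPA concentrations is therefore no evidence that the 3 genes stayed unchanged. DESeq2 and edgeR on the recovered reads also called 0 genes for BPA. An F-test over the lower concentrations and CC together called 0% of genes for BPA and 0.0598% for TBBPA, and none of the 3. The unadjusted p of this F-test after BPA was 0.0503 for atf3, 0.510 for ppp1r15a and 0.0604 for CEBPB. After TBBPA it was 0.735, 0.860 and 0.0325 for the same genes. Its adjusted p was 1.00 for each of the 3 after BPA, and after TBBPA it was 0.961 for atf3, 0.978 for ppp1r15a and 0.798 for CEBPB.

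The atf3 values at the lower BPA concentrations were nevertheless mostly at or above the CC values. atf3 had 43.7, 38.8 and 44.6 normalized counts at 0.00483 µM, 45.9, 59.8 and 57.1 at 0.0483 µM, 59.8, 52.2 and 55.1 at 0.483 µM and 42.0, 60.2 and 51.5 at 4.83 µM. At 0.0483, 0.483 and 4.83 µM each library was above the CC library of its own replicate number, a pattern that was not counted over all genes. These concentrations share the same CC libraries. At 0.483 µM all 3 libraries lay above all 3 CC libraries, as was so for 4.50% of all genes. The log2 fold change over CC was 0.06 at 0.00483 µM, 0.40 at 0.0483 µM, 0.45 at 0.483 µM and 0.32 at 4.83 µM. Its 95% confidence interval ran from 0.10 to 0.80 at 0.483 µM, where the unadjusted p was 0.0159 and the adjusted p 1.00 in limma. The values did not climb with concentration: the order of the group means was 0.483, 0.0483, 4.83 and 0.00483 µM and then CC, and each overlapped its neighbour. In the TBBPA series atf3 lay between 69.9 and 106 normalized counts in the 12 libraries below the EC20, against 80.1 to 95.1 in CC. Its log2 fold changes there were 0.09, 0.01, -0.03 and -0.11 at 0.000292, 0.00292, 0.0292 and 0.292 µM, and every 95% interval lay within -0.41 and 0.38.

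ppp1r15a had the lowest coefficient of variation of the 3 outside the EC20, but also the most reads. The fewest reads in a BPA library were 604 for ppp1r15a, 31 for atf3 and 69 for CEBPB. Counting noise weighs more on genes with fewer reads and was not removed. The coefficients therefore do not rank the genes by their own spread. Over the 15 BPA libraries outside the EC20 ppp1r15a ranged from 695 to 991 normalized counts. Its coefficient of variation was 10.0%, against 16.8% for atf3 and 25.2% for CEBPB. In the TBBPA series the corresponding values were 5.73% for ppp1r15a, 10.0% for atf3 and 16.7% for CEBPB. Its log2 fold changes over CC were -0.03, 0.0042, 0.11 and 0.12 at 0.00483, 0.0483, 0.483 and 4.83 µM BPA. After TBBPA they were 0.07, 0.0013, 0.0091 and -0.0017 at 0.000292, 0.00292, 0.0292 and 0.292 µM. The 95% intervals reached from -0.26 to 0.35 for BPA and from -0.16 to 0.23 for TBBPA, so a change of 1.5-fold in either direction lay outside each of them.

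The largest differences of CEBPB from CC below the EC20 were at 4.83 µM BPA and 0.0292 µM TBBPA, in opposite directions, and neither was called. At 4.83 µM BPA it had 190, 137 and 120 normalized counts, all above the 88.7, 116 and 111 of the CC libraries. In 1.95% of all genes the 3 libraries at 4.83 µM BPA lay above the 3 CC libraries. The log2 fold change there was 0.48 (95% interval 0.02 to 0.94, unadjusted p = 0.0401, adjusted p = 0.841 in limma). The highest of the 3 was replicate 1, and the library that stood apart, replicate 3, was the lowest. At 0.0292 µM TBBPA CEBPB had 186, 197 and 187 normalized counts, against 269, 291 and 194 in CC. It was below the CC library in every replicate pair, a pattern that was not counted over all genes. The log2 fold change was -0.38 (95% interval -0.66 to -0.10, unadjusted p = 0.00947, adjusted p = 0.934 in limma). The values at the other lower concentrations were between -0.18 and 0.07 for BPA and between -0.08 and 0.03 for TBBPA.

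**Figure D2:**
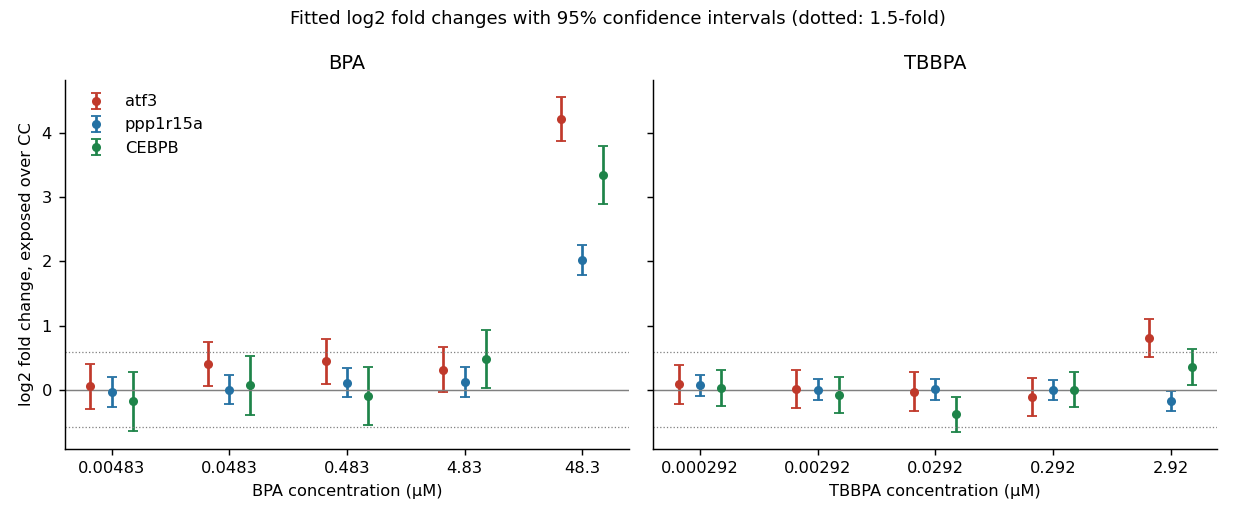
Fitted log2 fold change over CC (y axis) of the 3 genes at each concentration in µM (x axis), with bars for the 95% confidence interval and dotted lines at 1.5-fold. Below the EC20 the values lie between -0.38 and 0.48, and at the BPA EC20 they are 4.22, 2.02 and 3.35 for atf3, ppp1r15a and CEBPB.

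Correlations between the 3 genes were high over the BPA libraries and mixed over the TBBPA libraries. Over the 18 BPA libraries, with the mean of each replicate number removed, Pearson's r of the log2 values was 0.99 between atf3 and ppp1r15a, 0.97 between atf3 and CEBPB and 0.96 between ppp1r15a and CEBPB. Over the 18 TBBPA libraries r was 0.78 between atf3 and CEBPB, but -0.61 between atf3 and ppp1r15a and -0.43 between ppp1r15a and CEBPB. These are descriptions: the libraries share their replicate runs, and the 3 EC20 libraries used to choose the genes are among them. In the BPA series those 3 libraries lay above all others for each gene and so weigh heavily in r. It was not computed without them, so whether the genes vary together outside the EC20 was not tested.

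Likeness to a member was taken for 17156 other genes as the lower of the 2 values of r, over the BPA and over the TBBPA libraries. The genes most like atf3 were GGCT, which acts in glutathione breakdown (0.89), HSP90B1, a chaperone of the ER (0.88), ARPC1A, a subunit of the actin-nucleating Arp2/3 complex (0.88), PDIA4, a protein disulfide isomerase of the ER (0.87), and COPA, a coat protein of transport vesicles (0.87). The genes most like CEBPB were SOCS3, an inhibitor of cytokine signalling (ENSDARG00000025428, 0.85), shisa10.1 (0.85), pfn2b, an actin-binding profilin (0.84), PKM, a pyruvate kinase (0.82), and rac1a, a small GTPase (0.81). For ppp1r15a the values were lower: akt1s1 (0.80), CUL1 (0.79), PIK3IP1 (0.76), MYCN (0.76) and H1-10 (0.75). Among the members themselves, 23 genes were more like CEBPB than atf3 was and 91 were more like atf3 than CEBPB was, whereas for the pairs that include ppp1r15a the number was 11422 to 14355. The EC20 libraries, whose values were known when the members were chosen, enter each r. The ranks between members are therefore descriptions and carry no test.

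Further genes were read from 8 gene lists drawn up with earlier results of these data known, of which 109 genes were tested for BPA and 108 for TBBPA. Only 3 of the lists hold genes of the integrated stress response. The others hold genes of the unfolded protein responses, relatives of CEBPB and atf3, and genes of injury and the acute-phase response. At the BPA EC20 50 of the 109 rose, 3 fell and 56 were not called, and the median log2 fold change was 0.62, against -0.02 over all genes tested. Over all genes tested 7.07% rose and 6.93% fell there, and the same shares stand beside each list count below. Among the 50, ppp1r15b, lepb and il1b passed the filter on low values only through the BPA EC20 libraries and so had to differ there. Without them 47 of 106 rose and 3 fell, with a median of 0.59, a count chosen after seeing the data. Over all 8 lists, the 50 that rose became 34 without replicate 1 and 36 without replicate 2. For TBBPA, 4 of the 108 rose at the EC20 and none fell, with 104 not called, and the median was 0.12, against -0.01 over all genes. Over all genes tested 0.658% rose and 0.201% fell at the TBBPA EC20. The 4 became 0 without replicate 1 or replicate 3. On the 3 integrated stress response lists alone, 26 of 58 tested genes, ppp1r15b among them, rose and 2 fell at the BPA EC20. At the TBBPA EC20 1 of the 58 rose and none fell. At each lower concentration 0 of the listed genes were called in limma. Of the listed genes, 0 to 5 of 109 for BPA and 3 to 7 of 108 for TBBPA had an unadjusted p under 0.05 in limma. Over all genes tested the share with such a p was 1.21% to 2.96% at the lower BPA concentrations. At the lower TBBPA concentrations it was 3.78% to 6.94%.

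ppp1r15b, which encodes the constitutive alternative to the ppp1r15a subunit of the phosphatase, rose in the same BPA libraries. It had 45.2, 21.1 and 30.6 normalized counts at the BPA EC20, against 6.75, 8.54 and 2.09 in CC. The groups did not overlap, and the log2 fold change was 2.38 (SE 0.43, adjusted p = 0.00145). Leaving out replicate 1 took the adjusted p to 0.072. Outside the EC20 its mean over the 15 BPA libraries was 7.78, under the filter of 10, so it was tested only because of its EC20 values. In the TBBPA table ppp1r15b was under the filter, with 7.50, 11.7 and 9.70 at the EC20, against 3.57, 14.2 and 15.6 in CC. Of the 11 sensors and eIF2 factors tested at the BPA EC20, 3 rose: ppp1r15b, EIF2B1, a subunit of the eIF2 exchange factor (0.75), and eif2ak1, the haem-regulated kinase (0.73). The count was 0 without replicate 1: EIF2B1 was also lost without replicate 2, and eif2ak1 without replicate 2 or replicate 3. Without ppp1r15b, 2 of 10 rose, with a median of 0.34. EIF2AK3, the ER-resident kinase PERK, had a log2 fold change of 0.66 (SE 0.26) and was not called (adjusted p = 0.0938), but it was called without the library that stood apart (adjusted p = 0.0416). None of the 11 tested for TBBPA was called at its EC20.

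Of the 8 transcription factors of the response, 3 rose at the BPA EC20 and none at the TBBPA EC20. atf4a, a zebrafish copy of ATF4, had 1740, 2429 and 2339 normalized counts at the BPA EC20, against 1077, 1177 and 1065 in CC (log2 fold change 0.96, SE 0.23, adjusted p = 0.00902). Its other copy, atf4b, had 57.8, 39.6 and 45.9, against 57.9, 46.4 and 46.4 in CC (adjusted p = 0.853). DDIT3, which encodes CHOP, had 948, 1121 and 1032 at the BPA EC20, against 559, 408 and 539 in CC (log2 fold change 1.05, SE 0.30, adjusted p = 0.023). atf5b, a relative of ATF4, rose with a log2 fold change of 1.24 (SE 0.13, adjusted p = 2.41e-05). The calls of atf4a and DDIT3 were lost when replicate 1 was left out (adjusted p = 0.0588 and 0.126) or replicate 2 (adjusted p = 0.118 and 0.221), and that of DDIT3 also with reads scaled to the library total (adjusted p = 0.0732). In the library that stood apart, replicate 3 at 4.83 µM BPA, atf4a was at 2320 and DDIT3 at 181, whereas its 2 replicates had 969 and 1034 for atf4a and 528 and 559 for DDIT3. After TBBPA DDIT3 had 468, 422 and 436 at the EC20, against 420, 484 and 499 in CC (adjusted p = 0.599), and for atf4a the adjusted p was 0.233.

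The ATF4 target list had 39 tested genes, of which 20 rose and 2 fell at the BPA EC20, with a median log2 fold change of 0.62. The number that rose was 15 without replicate 1 and 17 without replicate 2. Those that rose included sesn2, a brake on growth signalling, with 157, 201 and 159 normalized counts at the BPA EC20, against 31.8, 50.0 and 32.2 in CC (log2 fold change 2.17, SE 0.28). ASNS, asparagine synthetase, had 129, 87.9 and 102 at the BPA EC20, against 33.8, 35.4 and 43.9 in CC (1.46, SE 0.22). TRIB3, a pseudokinase that restrains ATF4, had 444, 640 and 431 at the BPA EC20, against 158, 237 and 168 in CC (1.42, SE 0.16). The EC20 and CC libraries did not overlap for any of these. DDIT4, an inhibitor of growth signalling, rose as well (1.33, SE 0.20), and so did PSAT1, an enzyme of serine synthesis (1.90, SE 0.20). Adjusted p-values of these 5 in limma lay between 2.41e-05 and 0.000469. Of the 11 aminoacyl-tRNA synthetases on the list, a group picked out after their values were seen, 10 rose, with log2 fold changes up to 1.24 for TARS1. The calls of SARS1, MARS1 and AARS1 were lost without replicate 1, those of SARS1 and AARS1 also without replicate 2. That of MARS1 was lost without replicate 3 and that of SARS1 with an added constant of 10. The genes that fell were slc3a2a (-0.64), a subunit of amino acid transporters, and one GPT gene (ENSDARG00000055642, -1.33), an alanine aminotransferase, whereas the other GPT gene (ENSDARG00000019541) was at 0.05 and was not called. The call of slc3a2a was lost with only the compared libraries in the fit and without replicate 2 or replicate 3, and that of GPT without replicate 2. fgf21 was under the filter in both tables, and CHAC1, also on the list, was not among the genes tested in either series. Only PSAT1 rose at the TBBPA EC20, with 194, 198 and 238 normalized counts, against 127, 134 and 156 in CC (0.59, SE 0.10, adjusted p = 0.00416). Its fold lay at the 1.5-fold limit and the call was lost with an added constant of 10 (0.56) and with reads scaled to the library total (0.58), as well as without replicate 1 (adjusted p = 0.0637) or replicate 3 (adjusted p = 0.0777). TRIB3, ASNS, DDIT4 and sesn2 were not called at the TBBPA EC20 (adjusted p = 0.896, 0.693, 0.592 and 0.277). Of the 39 ATF4 targets 31 were higher at the TBBPA EC20 than in CC, with a median log2 fold change of 0.14. All 11 synthetases were higher there, with a median of 0.24, and none was called. The share that was higher was 48.9% over all genes tested. It was 5 of 11 for the sensors and eIF2 factors and 3 of 8 for the transcription factors. Whether any list shifted as a set was not tested.

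Of the genes of the unfolded protein responses, 8 of the 18 tested for the ER and 4 of the 7 tested for the mitochondrion rose at the BPA EC20 and none fell. HSPA5, the main chaperone of the ER, had 3715, 3248 and 3481 normalized counts at the BPA EC20, against 1226, 1373 and 1195 in CC (log2 fold change 1.46, SE 0.12, adjusted p = 3.67e-06). XBP1, a transcription factor of the ER response, had 2242, 2396 and 1986, against 817, 987 and 701 in CC (1.41, SE 0.15, adjusted p = 2.15e-05). The median log2 fold change was 0.49 for the ER genes and 0.72 for the mitochondrial genes. Without replicate 2 the count was 5 for the ER genes, as dnajc3b, EDEM1 and PDIA4 were no longer called, and without replicate 1 it was 6. The mitochondrial count fell to 1 without replicate 2, which left HSPD1, a matrix chaperonin, and to 2 without replicate 1. CLPP and CLPX (ENSDARG00000067796), which encode subunits of a matrix protease, were lost in both of these fits, and LONP1, another matrix protease, without replicate 2. Of 19 ER genes 1 rose at the TBBPA EC20: HYOU1, an ER chaperone, had 240, 236 and 279 normalized counts, against 169, 149 and 180 in CC (0.60, SE 0.11, adjusted p = 0.00694). Its call was lost with an added constant of 10 (0.57), without replicate 2 (0.57) and without replicate 1 or 3 (adjusted p = 0.0755 and 0.0719). XBP1 stood at 0.27 (SE 0.07, adjusted p = 0.038) at the TBBPA EC20, which is below the 1.5-fold limit, and HSPA5 at 0.18 (adjusted p = 0.126). Of the 19 ER genes 15 were higher at the TBBPA EC20 than in CC, with a median log2 fold change of 0.18. Among the 7 mitochondrial genes 6 were higher, with a median of 0.13, against 48.9% of all genes tested.

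**Figure D3:**
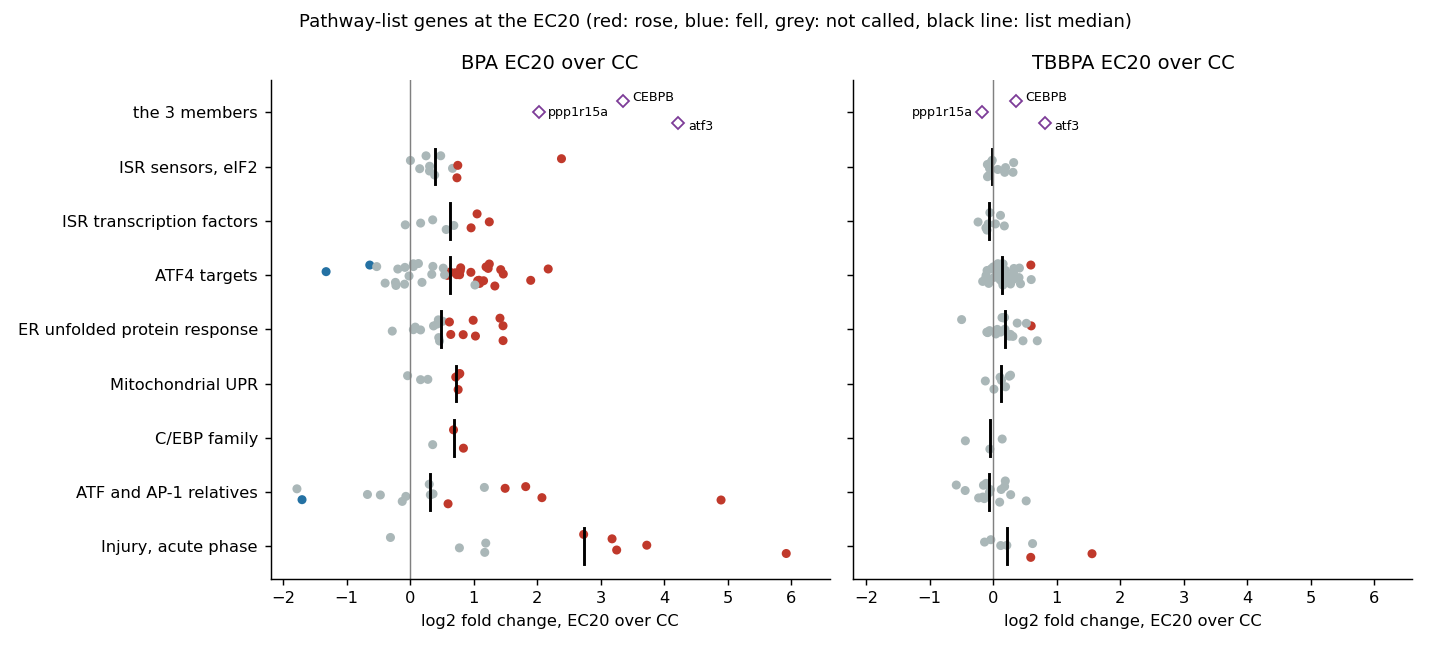
Log2 fold change at the EC20 over CC (x axis) of every tested gene in the 8 pathway lists, 1 row a list, with BPA at the left and TBBPA at the right; the 3 described genes are the open diamonds in the top row. At the BPA EC20 50 of 109 genes rose (red) and 3 fell (blue), against 7.07% and 6.93% of all genes tested. Among the 50 are ppp1r15b, lepb and il1b, which passed the filter only through the EC20 libraries. At the TBBPA EC20 4 of 108 rose, against 0.658% of all genes tested, and 0 without replicate 1 or replicate 3.

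Closer relatives of CEBPB and atf3 gave a mixed picture. CEBPD had 2006, 2072 and 1700 normalized counts at the BPA EC20, against 780, 1384 and 1147 in CC (log2 fold change 0.84, SE 0.18, adjusted p = 0.0047), and CEBPA rose with a log2 fold change of 0.68 (SE 0.16, adjusted p = 0.00979). Without replicate 1 neither was called (adjusted p = 0.0588 for CEBPD and 0.122 for CEBPA), and CEBPA was not called without replicate 2 (adjusted p = 0.062). cebpg had an adjusted p of 0.0408 with a log2 fold change of 0.35, under the 1.5-fold limit. After TBBPA CEBPD had 1893, 1310 and 1268 at the EC20, against 2338, 2054 and 1629 in CC. It was lower in all 3 pairs (log2 fold change -0.44, SE 0.11, adjusted p = 0.0343) and not a DEG by fold. CEBPA and cebpg were at 0.14 and -0.05 there and were not called. Among the relatives of ATF3, 5 of 15 rose and 1 fell at the BPA EC20 and none was called at the TBBPA EC20. FOSL1, an AP-1 subunit, had 440, 316 and 429 normalized counts at the BPA EC20, against 8.68, 18.3 and 11.3 in CC (log2 fold change 4.89, SE 0.53, adjusted p = 3.11e-05). JUN, a frequent dimer partner of ATF3, rose with a log2 fold change of 2.07 (SE 0.11, adjusted p = 7.98e-08), as did both genes named JUNB (1.82 and 1.49) and FOSL2 (0.59). fosaa, which encodes a Fos protein, fell (-1.70, SE 0.48, adjusted p = 0.0227). The calls of fosaa and FOSL2 were lost without replicate 1 or replicate 2, that of fosaa also with reads scaled to the library total and that of FOSL2 with an added constant of 10. The 2 genes named JDP2, which encodes a repressor related to ATF3, were at -0.47 and -0.67 and were not called (adjusted p = 0.299 and 0.354). At the TBBPA EC20 they were at -0.14 and 0.13 (adjusted p = 0.781 and 0.853).

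Genes of injury and the acute-phase response include some that C/EBP beta controls in mammals. The BPA table held 15 of them, of which 9 were tested and 5 rose at the EC20. Of the 9, lepb and il1b passed the filter only through the EC20 libraries, and without them 3 of 7 rose, with a median log2 fold change of 1.19. lepb, a leptin gene that zebrafish induce in wounded tissue, had 109, 94.1 and 136 normalized counts at the BPA EC20, against 1.93, 1.22 and 0 in CC, where no library held more than 2 reads. In the 15 BPA libraries outside the EC20 it lay between 0 and 6.96. The test called it (adjusted p = 0.000273), but with so few CC reads no fold is given. MMP9, a matrix-degrading protease, had 155, 297 and 271 at the BPA EC20, against 15.4, 13.4 and 22.1 in CC (log2 fold change 3.72, SE 0.34). The 2 genes named SOCS3 had 550, 572 and 570 at the BPA EC20, against 50.2, 91.5 and 50.6 in CC (ENSDARG00000025428), and 845, 880 and 885, against 68.5, 122 and 89.0 in CC (ENSDARG00000026611). il1b rose with a log2 fold change of 2.73 (SE 0.38). MMP9 also rose after TBBPA, with 99.4, 53.4 and 110 normalized counts at the EC20, against 30.9, 24.7 and 28.1 in CC (1.56, SE 0.34, adjusted p = 0.0178). One SOCS3 gene also rose there, with 313, 184 and 234, against 174, 143 and 157 in CC (ENSDARG00000026611, 0.59, SE 0.14, adjusted p = 0.0249), and the other had an adjusted p of 0.104. As with CEBPB and atf3, replicate 2 was the lowest of the TBBPA EC20 libraries for MMP9 and for both SOCS3 genes. The call of MMP9 was lost without replicate 1 (adjusted p = 0.135) and without replicate 3 (adjusted p = 0.175). That of SOCS3 was lost in 5 of 11 alternatives, among them the fit without the replicate block (adjusted p = 0.118).

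**Figure D4:**
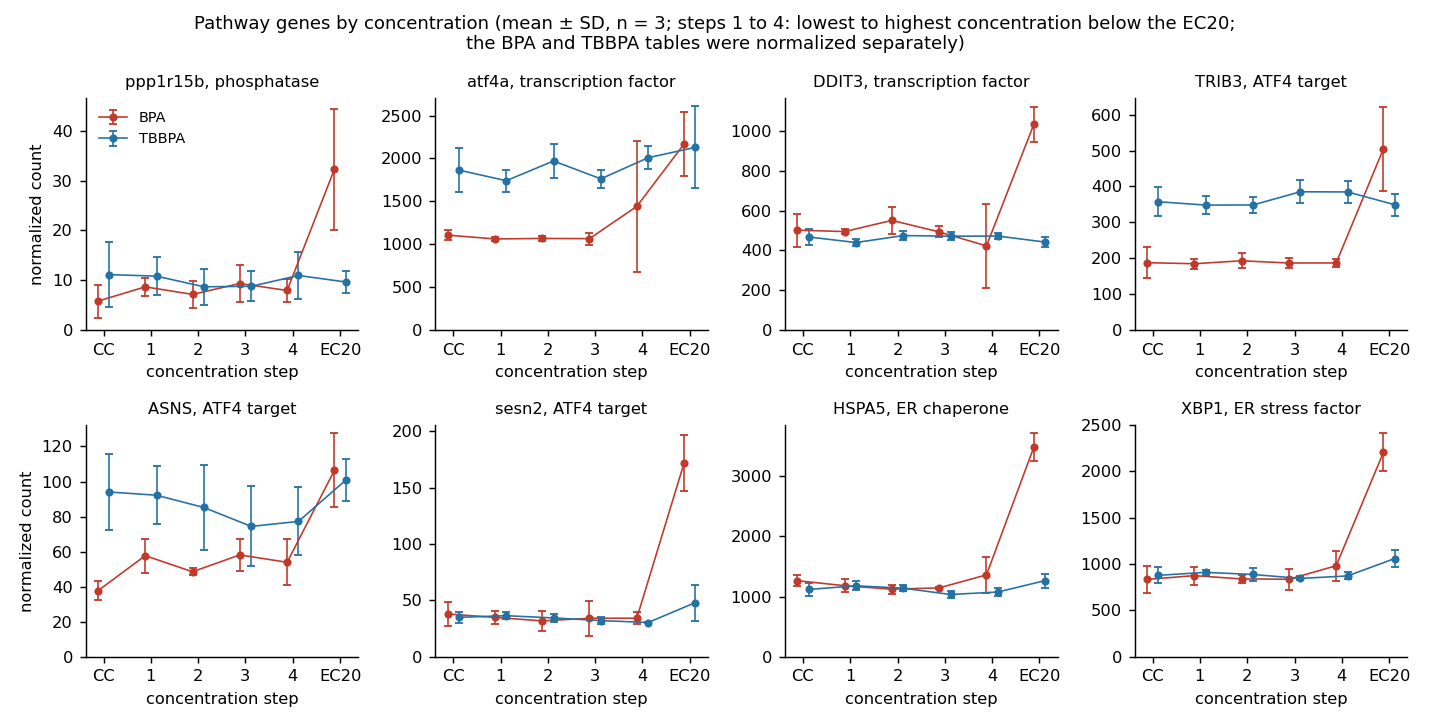
Normalized counts (mean ± SD of 3 libraries, linear axis from 0) of 8 pathway genes from CC through the lower concentrations to the EC20, for BPA (red) and TBBPA (blue), whose tables were normalized separately. For ppp1r15b, DDIT3, TRIB3, sesn2, HSPA5 and XBP1 the BPA EC20 stands above all other BPA groups, and the wide bars of atf4a and DDIT3 at step 4 of BPA hold the library that stood apart.

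Markers of other cell types were read beside these results, since CEBPB is used by myeloid cells and hepatocytes. In the BPA series 3 of 4 tested macrophage markers rose at the EC20, and the count was 1 when any 1 replicate was left out. MFAP4 and csf1ra, both among the 4, passed the filter only through the EC20 libraries, and without them 2 of 2 rose. The summed normalized counts of the 12 macrophage markers in the table were 205 to 272 at the BPA EC20, against 60.8 to 79.3 in CC, and 1 of the 12 was at 0 in all EC20 libraries and 3 in all CC libraries. The 4 neutrophil markers in the table, MMP9 among them, summed to 314 to 423 at the BPA EC20, against 91.6 to 153 in CC. Of the 3 tested only MMP9 rose, with a log2 fold change of 3.72, and the others were at 0.92 and -0.88. The count that rose was 2 in several alternatives, among them edgeR, DESeq2, an added constant of 10 and the fit without replicate 3. In the fits without replicate 1 and without the library that stood apart, 1 fell. The sums include MMP9, so they do not show that the other markers rose. All 4 erythrocyte markers rose, with sums of 1302 to 1788 at the BPA EC20, against 296 to 645 in CC. The count was 3 without replicate 1 and 2 without replicate 2. The 11 hepatocyte markers summed to 1859 to 12081 at the BPA EC20, against 5932 to 7306 in CC, and 1 of them fell. The number that fell was 4 without replicate 1 and 0 without replicate 2, and edgeR and DESeq2 each called 2 that rose. At the TBBPA EC20 none of 4 macrophage markers was called, with sums of 133 to 169, against 84.2 to 113 in CC. The neutrophil markers summed to 264 to 304 at the TBBPA EC20, against 163 to 215 in CC, and 1 of 3 tested, MMP9, rose. Of the 4 erythrocyte markers 2 rose, with sums of 1186 to 1388 at the TBBPA EC20, against 482 to 984 in CC. The hepatocyte markers summed to 22839 to 37318 at the TBBPA EC20, against 13036 to 23413 in CC, and 1 of 11 rose. That count was 0 without replicate 1 or replicate 3 and 3 without replicate 2. The 5 neuron markers summed to 7513 to 9278 at the BPA EC20, against 9836 to 12066 in CC, and 2 of them fell, whereas none was called at the TBBPA EC20. No skeletal muscle or keratinocyte marker was called at the EC20 of either chemical. Without replicate 1 of BPA, 1 muscle marker fell and 1 keratinocyte marker rose. The part of these cell types in the CEBPB and atf3 values was not tested.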

How the data were processed

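Larvae were pooled, and stranded mRNA libraries were made and sequenced by the authors. Per the labels and the study's methods, reads were trimmed with cutadapt, aligned and counted per gene with STAR (build GRCz11) and divided by DESeq2 size factors. The deposited values (signal, in normalized counts) are these reads divided by the size factor. Multiplying by the size factor gave whole reads for 100% of values (tolerance 0.1 read); in 1 library of each series the step was too near 1 to be told from rounding. These reads entered edgeR 4.0.16 and DESeq2 1.42.0 as alternatives only. There were 36 libraries, all columns were mapped by name, and depth was 6056692 to 16520859 reads. No 2 libraries of a group agreed within counting noise (chi-square per degree of freedom 2.95 to 29.0 over 36 pairs).

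Values were tested as log2(value + 1) with limma 3.58.1 (lmFit, eBayes with trend; R 4.3.3) for genes with a mean of at least 10, over the 18 libraries of each chemical, with concentration group and replicate number as terms. Fold changes are on this scale and understate those of low genes. A DEG had a Benjamini-Hochberg adjusted p under 0.05 over all genes tested and a change of at least 1.5-fold. All tests were two-sided. The replicate number pairs the libraries because, per the methods, the whole procedure was repeated 3 times with different clutches. Deviations from the group mean correlated at a median r of 0.115 (BPA) and 0.166 (TBBPA) between libraries of the same number, against -0.057 and -0.079 between other numbers. Between the EC20 and CC libraries of replicates 1, 2 and 3, r was -0.044, 0.111 and 0.210 for BPA. For TBBPA it was 0.169, 0.086 and 0.213. P-values measure the spread between these pools of 20 larvae.

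Gene symbols came from a reference table, which named 23843 of 25856 BPA genes and 24487 of 26639 TBBPA genes. The 3 genes and all lists were chosen with earlier results of these data known. Named genes were the 3 members, a set of core pathway genes whatever their values, for each chemical the 5 listed DEGs with the largest change in the same direction in every replicate pair, and the 5 genes most like each member. TARS1, SARS1, MARS1, AARS1, slc3a2a, GPT, EIF2B1, eif2ak1, atf5b, JUN and JUNB were added after their values were seen. So were FOSL2, fosaa, il1b, dnajc3b, EDEM1, HSPD1, CLPP, CLPX, LONP1, MFAP4 and csf1ra. Listed IDs that share a symbol or are close copies (JDP2, JUNB, SOCS3) may split reads. The main fit was tried on simulated counts that held no replicate effect and no library that stood apart. That trial cannot show how the fit does on data with both, and no result rests on it. Alternatives were the added constant, the filter, the replicate term, the libraries fitted, the tool, the scaling and leaving out replicates.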

Additional observations from a re-analysis of the deposited data

How the results depend on the processing

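No member was called at a lower concentration under any of 11 alternatives for each chemical, and the F-test gave none under 10 (DESeq2's Wald test has no such F-test and was not run for it). At the EC20 each of the 3 genes kept its sign under all 11 alternatives, with log2 fold changes of 3.95 to 4.29 for atf3, 1.93 to 2.08 for ppp1r15a and 3.17 to 3.48 for CEBPB after BPA, and 0.70 to 1.04, -0.26 to -0.11 and 0.23 to 0.59 for the same genes after TBBPA. The atf3 value for BPA with an added constant of 10, 3.95, was the lowest, as that constant shrinks low values. The limits lie in the 3 libraries of each group and in the low CC counts of atf3 (31 to 112 reads for BPA).

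Without the replicate block the number of DEGs at the TBBPA EC20 was 69 in place of 158, and that at 0.000292 µM TBBPA 0 in place of 5. At the BPA EC20 the number without the block was 2307 in place of 2414. On the recovered reads edgeR gave 2669 DEGs at the BPA EC20 and 188 at the TBBPA EC20, and DESeq2 2761 and 104. Leaving out 1 replicate gave 19 to 114 DEGs at the TBBPA EC20, of which 19 without replicate 3, 41 without replicate 1 and 114 without replicate 2. It gave 0 to 24 at 0.000292 µM TBBPA, 0 to 1 at 0.292 µM TBBPA, and 1169 to 2399 at the BPA EC20 (1169 without replicate 2, 1217 without replicate 1). Pathway-list genes called at the TBBPA EC20 were 4, but 1 with a constant of 10, 2 with reads scaled to the library total and 0 to 4 without 1 replicate (0 without replicate 1 or replicate 3). With only the compared libraries in the fit, 1 gene was called at 0.0292 µM and 13 at 0.292 µM TBBPA. Without replicate 2 at 0.000292 µM TBBPA, an alternative chosen after seeing the data, 1 gene was called there. Without the BPA library that stood apart the BPA EC20 had 3559 DEGs. Scaling by library total moved the median of all genes at 4.83 µM BPA by -0.12. The fits without a replicate hold fewer libraries; the cause of the other differences was not tested.

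Some values near 0 changed sign, none of them called. Leaving out 1 replicate gave these log2 ranges. In BPA, atf3 ran from -0.016 to 0.12 at 0.00483 µM, ppp1r15a from -0.13 to 0.030 at 0.00483 µM and -0.039 to 0.040 at 0.0483 µM, and CEBPB from -0.40 to 0.15 at 0.483 µM. In TBBPA, atf3 ran from -0.12 to 0.078 at 0.00292 µM and -0.087 to 0.026 at 0.0292 µM. ppp1r15a ran from -0.068 to 0.20 at 0.000292 µM, -0.042 to 0.065 at 0.00292 µM, -0.046 to 0.072 at 0.0292 µM and -0.091 to 0.064 at 0.292 µM TBBPA. CEBPB ran from -0.038 to 0.091 at 0.000292 µM, -0.28 to 0.034 at 0.00292 µM and -0.057 to 0.062 at 0.292 µM TBBPA. At the TBBPA EC20 TRIB3 ran from -0.12 to 0.034, and the JDP2 genes from -0.37 to 0.12 and from -0.16 to 0.66. With reads scaled to the library total ppp1r15a was 0.010 at 0.00483 µM BPA and 0.012 at 0.292 µM TBBPA. In edgeR and DESeq2 ppp1r15a was -0.0032 and -0.00080 at 0.00292 µM TBBPA, and CEBPB -0.0065 and -0.0050 at 0.292 µM TBBPA. Without replicate 2 at 0.000292 µM TBBPA, ppp1r15a was -0.012 and CEBPB -0.010 there.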
